A study of Drosophila melanogaster with 8 samples.

Results

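The RNA of transposable elements (TEs) in Drosophila melanogaster ovaries was made up of other families after depletion of Piwi in follicle cells (the somatic layer that encloses the germline) than without it. All TE families listed above 0 in at least 1 of the 4 libraries of the single knockdown were taken, 109 of the 111 families measured, and only Penelope and Q were at 0 throughout. Each library held between 107 and 108 families above 0. Ovaries were compared between no-KD and piwi-sKD, with 2 biological replicates each, 30 pairs of ovaries pooled in each, by sequencing polyA RNA. All 4 samples carried the same transgenes, tj-GAL4, tubP-GAL80[ts] and a short hairpin against piwi, so that the follicle-cell promoter of traffic jam drives the hairpin whenever the thermosensitive GAL80 is inactive. The no-KD flies stayed at 20°C, where GAL80 blocks GAL4. The piwi-sKD flies spent their last 5 days at 25°C. Piwi depletion and temperature therefore cannot be told apart in these 4 libraries. The table lists no genes, so neither the level of piwi nor markers of follicle cells and germline were analysed here. In whole ovaries, fewer cells of a type and less RNA per cell cannot be told apart.

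Piwi is the only PIWI-clade Argonaute at work in follicle cells, where it is loaded with piRNAs cut from long precursors such as the transcript of flamenco, a locus on the X chromosome packed with remnants of LTR retrotransposons, and silences matching elements in the nucleus. The germline next to them uses further Argonautes and other piRNA sources. LTR retrotransposons of flies are called endogenous retroviruses (ERVs) here, since several of them carry an env reading frame beside gag and pol. Non-LTR retrotransposons, such as those of the Jockey clade and the telomeric elements, are copied into the genome at the site of integration. Most DNA elements move by cut and paste.

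The measure used throughout is the share of a family in TE RNA, its percentage of the sum of all TE normalised counts in the same library. A share does not depend on how a library was scaled, but shares are tied to each other: where a few abundant families rise, all others lose share even at a steady level. For that reason the level, the normalised count as deposited, stands beside the share where it changes the reading. A second reference stands there too, in which each library was scaled so that its DNA and non-LTR families summed to the same value. Libraries held 80184 and 78807 TE reads in no-KD and 192221 and 261136 in piwi-sKD. At these depths, 3 reads correspond to between 0.00115% and 0.00381% of TE reads. The 95% Wilson interval of a family share reached at most 0.258 percentage points to either side of the value. Class shares had wider ones, such as 46.7% to 47.4% for ERVs in no-KD replicate 2. Like the 3-read limit, these intervals cover counting error only.

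ERVs held nearly the same share of TE RNA as all other families together in no-KD, and far more in piwi-sKD. Their 54 families made up 46.7% and 47.1% of TE RNA in the no-KD replicates and 70.3% and 74.3% in piwi-sKD, a difference of 25.4 percentage points between means of 46.9% ± 0.248 and 72.3% ± 2.85 (SD, n = 2). The 34 non-LTR families held 36.0% and 35.0% against 21.0% and 18.01%, and the 21 DNA families 17.3% and 17.97% against 8.75% and 7.70%. In none of the 3 classes did the groups overlap, although an exact permutation test of 2 samples against 2, two-sided, cannot go below p = 0.333, the value it gave for the ERV share. The level of all TEs together was 2.59-fold higher in piwi-sKD (214847 ± 22997 against 82989 ± 4902 normalised counts, SD, n = 2). Within it, the summed level of ERVs was 4.001-fold higher, that of non-LTR families 1.41-fold and that of DNA families 1.20-fold, so that every class had a higher summed level and only 1 of the 3 a higher share. On this deposited scale ERVs accounted for 88.5% of the net rise, non-LTR families for 9.24% and DNA families for 2.25%.

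**Figure D1:**
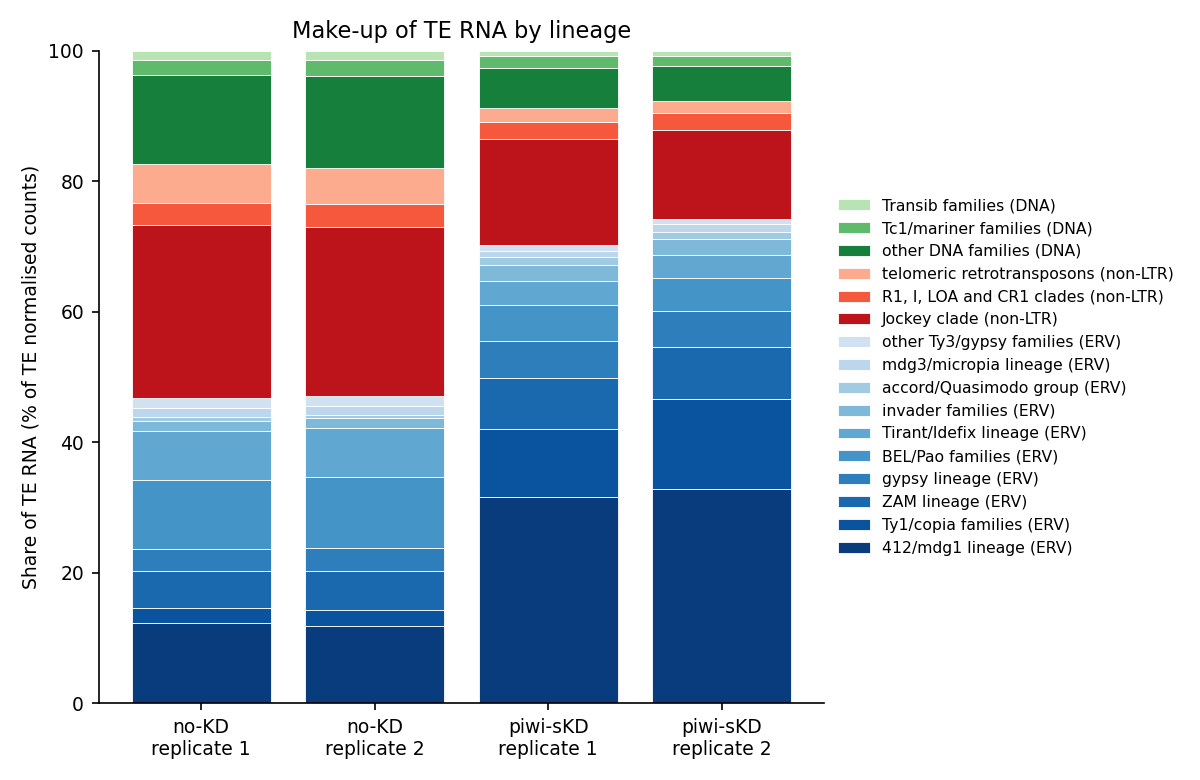
Stacked shares of 16 TE lineages in percent of the TE normalised counts of each of the 4 libraries, ERV lineages in blue, non-LTR in red and DNA in green. The lowest block, the 412/mdg1 lineage, covers 12.3% and 11.8% in no-KD and 31.6% and 32.9% in piwi-sKD, and the Ty1/copia block above it grows from 2.31% to 12.1% in the group means.

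The ERV gain was not spread over the ERV lineages. The 412/mdg1 lineage alone held 12.3% and 11.8% of TE RNA in no-KD and 31.6% and 32.9% in piwi-sKD, and carried 45.0% of the net rise of TE counts. The 3 Ty1/copia families held 2.23% and 2.39% against 10.4% and 13.8%. A larger mean share in piwi-sKD was also found for 4 smaller ERV groups, the ZAM lineage (7.90% against 5.85%), the gypsy lineage (5.59% against 3.45%), the invader families (2.47% against 1.52%) and the accord/Quasimodo group (1.11% against 0.574%). The remaining ERV groups had a lower share in piwi-sKD. BEL/Pao families held 10.8% in no-KD and 5.27% in piwi-sKD, the Tirant/Idefix lineage 7.51% and 3.65%, the remaining Ty3/gypsy families 1.48% and 0.889%, and the mdg3/micropia lineage 1.33% and 1.07%. Their summed deposited levels were nevertheless higher in piwi-sKD, 1.26-fold, 1.25-fold, 1.55-fold and 2.10-fold in that order. Among the other classes, the Jockey clade held 26.3% in no-KD and 14.9% in piwi-sKD, the telomeric retrotransposons 5.74% and 2.02%, and DNA families outside Tc1/mariner and Transib 13.8% and 5.73%. In summed level the Jockey clade was 1.46-fold and those DNA families 1.07-fold higher in piwi-sKD, and the telomeric retrotransposons were at 0.901-fold with overlapping groups. In each of the 16 lineages the shares of the groups did not overlap. The same held for most single families, with piwi-sKD above in 22 of 109 (20.2%) and below in 80 (73.4%). No test was run on lineages, whose members were assigned by hand and may share reads where their sequences are alike.

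Several lineage gains of share turned into losses once 1 family was left out. That family was in each case the largest gainer in these same data. With copia taken out of the lineage and of the total, the difference of the Ty1/copia families was -0.0582 percentage points (log2 share change of 1731, -1.13, and of frogger, -0.95). In the same way, without gtwin that of the gypsy lineage was -0.105 points, and without invader3 that of the invader families was -0.489 points. Without ZAM, the ZAM lineage held 5.65% in no-KD against 4.69% in piwi-sKD (-0.956 points). The 412/mdg1 lineage without 412 was still 9.31 points higher in piwi-sKD, and the accord/Quasimodo group without accord2 0.158 points. These differences concern shares only. On the deposited scale 10 of 13 gypsy-lineage families were called higher, 4 of 5 in the ZAM lineage, 3 of 6 invader and 1 of 3 Ty1/copia families. None of these groups held a family called lower on that scale, beside 60 higher and 6 lower of all 109.

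Family by family, shares were tested with limma on log2 of the count after scaling every library to the same TE sum, with a pseudocount of 1. Of 109 families, 22 had a higher share in piwi-sKD at a Benjamini-Hochberg adjusted p under 0.05 (20.2% of those tested) and 78 a lower one (71.6%), with 9 not called. By sample values alone, both piwi-sKD replicates lay above both no-KD replicates in 22 families (20.2%) and below them in 80 (73.4%). Because of the pseudocount, the log2 changes given here come out too small for rare families. In this fit the spread was tied to the level of a family and shared across families with no residual uncertainty of its own, so that adjusted p-values became very small. The sample values therefore stand beside each call. Over the 30 called families singled out by rule, the largest adjusted p was 8.54e-05 with the shared spread and 0.0129 in a limma fit that does not tie the spread to the level. The median family had a log2 share change of -0.88, which is the background against which a lower share has to be read. On the deposited scale the same median was 0.47, and 60 families were higher (55% of those tested) and 6 lower (5.5%). With the DNA and non-LTR sum held equal it was 0.05, with 33 higher (30.3%) and 19 lower (17.4%).

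Both other scales differ from the share by 1 factor per library that is larger in piwi-sKD, so the 22 families with a higher share are higher on them by construction, and only the losses can be read against them. Of the 78 with a lower share, only 6 had a lower deposited level, 31 had a higher one and 41 were not called. The same 78 split into 19 lower, 5 higher and 54 not called when the DNA and non-LTR sum was held equal. A lower share was thus in most cases not accompanied by a call of a lower level. The level fit kept uncertainty in the spread (6.11 prior degrees of freedom) that the share fit did not, so calls on these 2 scales are not of equal power. The 22 families together held 17.8% and 17.4% of TE RNA in no-KD and 56.3% and 61.1% in piwi-sKD. They were picked for a higher share in these same libraries, so the direction of this difference is a condition of the choice.

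**Figure D2:**
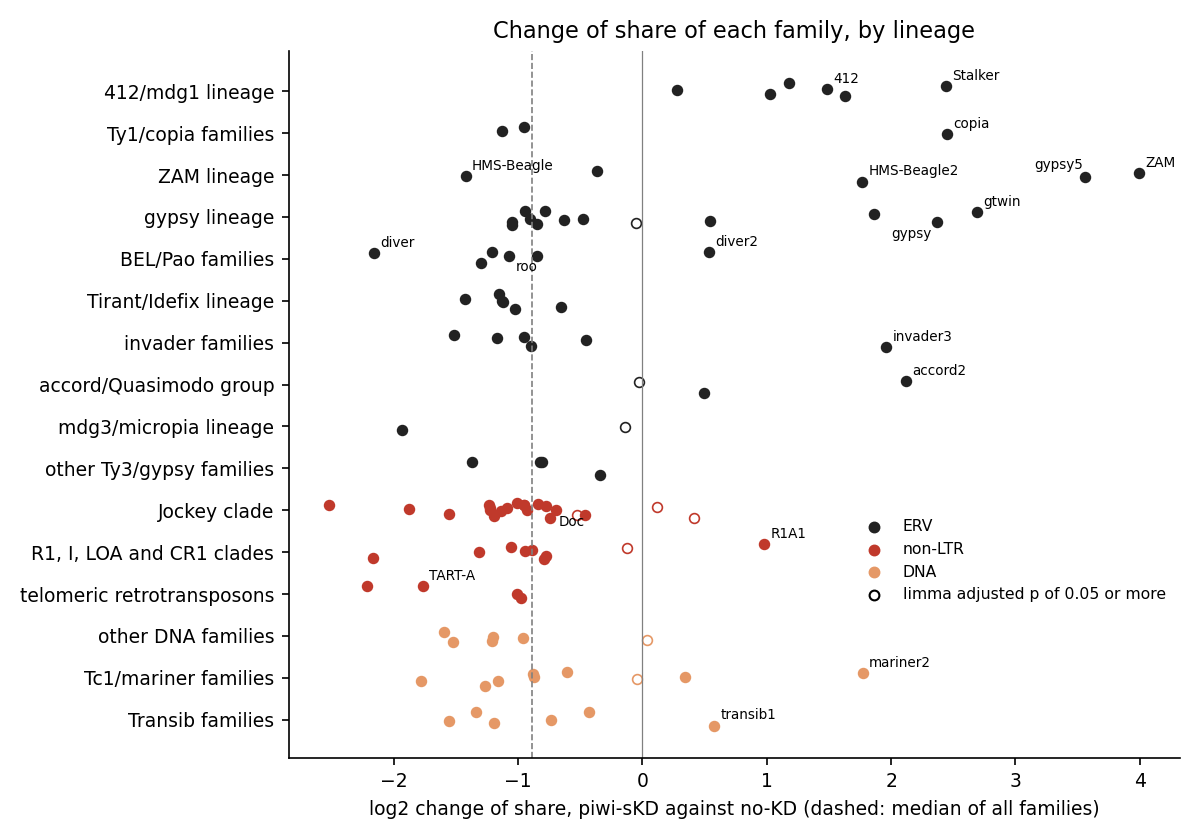
Log2 change of share of each of the 109 families, piwi-sKD against no-KD, in rows by lineage and coloured by class, with open circles for families not called by limma. All 6 members of the 412/mdg1 lineage lie right of 0, whereas most points of the other rows gather near the dashed median of -0.88 and single families (copia, invader3, diver2, mariner2, R1A1) stand apart from their rows.

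The 412/mdg1 lineage was the one ERV lineage in which every member gained. Its 6 families, 412, blood, mdg1, Stalker, Stalker2 and Stalker4, were all called higher in share, beside 22 of all 109 families (20.2%). The family 412 held 7.54% and 7.39% of TE RNA in no-KD and 20.5% and 21.3% in piwi-sKD (log2 change 1.49 ± 0.11, SE), and moved from rank 2 to rank 1. Alone it supplied 29.5% of the net rise of TE counts. For blood the shares were 1.74% and 1.59% against 5.01% and 5.30%, and for mdg1 1.82% and 1.76% against 3.95% and 4.18%. Stalker2 held 0.691% and 0.655% against 1.34% and 1.40%. Stalker was rare, with 0.0412% and 0.0203% in no-KD and 0.173% and 0.149% in piwi-sKD, yet its log2 change of 2.44 ± 0.20 was the largest of the lineage. The smallest was 0.28, for Stalker4. Within the lineage 412 came first in both groups, at 61.9% of lineage RNA in no-KD and 65.0% in piwi-sKD, while blood (13.8% against 16.0%) passed mdg1 (14.8% against 12.6%).

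The family copia gives its name to the Ty1/copia superfamily, which has no env gene. It held 2.12% and 2.26% of TE RNA in no-KD and 10.4% and 13.7% in piwi-sKD (log2 change 2.45 ± 0.11), moved from rank 11 to rank 2 and supplied 18.5% of the net rise. Its level was 1831 and 1796 normalised counts in no-KD and 20601 and 31753 in piwi-sKD. The piwi-sKD replicates differed more for copia than for 412, and both lay well above no-KD. Without 412 and copia, taken out of the total as well, ERVs held 41.0% and 41.4% in no-KD and 57.0% and 60.4% in piwi-sKD, so that a difference of 17.5 points was left.

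The ZAM lineage was turned over from within. HMS-Beagle made up 78.4% and 80.8% of the lineage in no-KD and 22.4% and 21.6% in piwi-sKD, whereas ZAM made up 3.77% and 3.42% against 41.3% and 43.8%. In all TE RNA, ZAM held 0.216% and 0.204% in no-KD and 3.24% and 3.49% in piwi-sKD, a log2 change of 3.995 ± 0.11, the largest of all families, and moved from rank 53 to rank 6. Its level was 187 and 162 normalised counts in no-KD against 6427 and 8054. The share of gypsy5 was 0.171% and 0.160% against 1.95% in both piwi-sKD replicates, with a log2 change of 3.56. HMS-Beagle itself had a share of 4.49% and 4.82% in no-KD and 1.76% and 1.72% in piwi-sKD. Its level was 3885 and 3833 normalised counts against 3491 and 3976, not called on the deposited scale (limma adjusted p = 0.667) and called lower with the DNA and non-LTR sum held equal (log2 change -0.48, adjusted p = 0.000443). HMS-Beagle2, in spite of its name, gained share (0.0798% and 0.0787% against 0.288% and 0.257%).

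In the gypsy lineage and the invader families, too, shares within the lineage shifted to another family. In the gypsy lineage gypsy12 held 53.7% and 56.5% of lineage RNA in no-KD and 18.8% and 16.6% in piwi-sKD, while gtwin held 11.4% and 13.2% against 48.8% and 49.2%. The level of gypsy12 did not fall, at 1568 and 1580 normalised counts in no-KD against 2099 and 2124 (limma adjusted p = 0.00426). With the DNA and non-LTR sum held equal its log2 change was -0.004 and not called. No family of the lineage was called lower on either of these scales. Of the 13 members of the lineage 4 gained share (gtwin, gypsy, gypsy6 and springer) and 8 lost it, beside 18 and 33 of all 54 ERVs. The share of gypsy, an element with a functional env gene, was 0.110% and 0.0964% in no-KD and 0.524% and 0.544% in piwi-sKD (log2 change 2.37). Among the 6 invader families invader3 made up 31.7% and 33.8% of their RNA in no-KD and 78.7% and 78.5% in piwi-sKD, and the other 5 lost share. On the deposited scale 3 of the 6 were higher and none lower, and with the DNA and non-LTR sum held equal 1 was higher and 1 lower. In the accord/Quasimodo group accord2 and Quasimodo gained and accord was not called. The BEL/Pao families held one gaining member, diver2 (0.414% and 0.367% against 0.543% and 0.588%), beside diver, which had one of the deepest losses of any family (0.970% and 0.988% against 0.243% and 0.197%, log2 change -2.16 ± 0.12). The level of diver was also lower, at 839 and 786 normalised counts against 483 and 456.

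**Figure D3:**
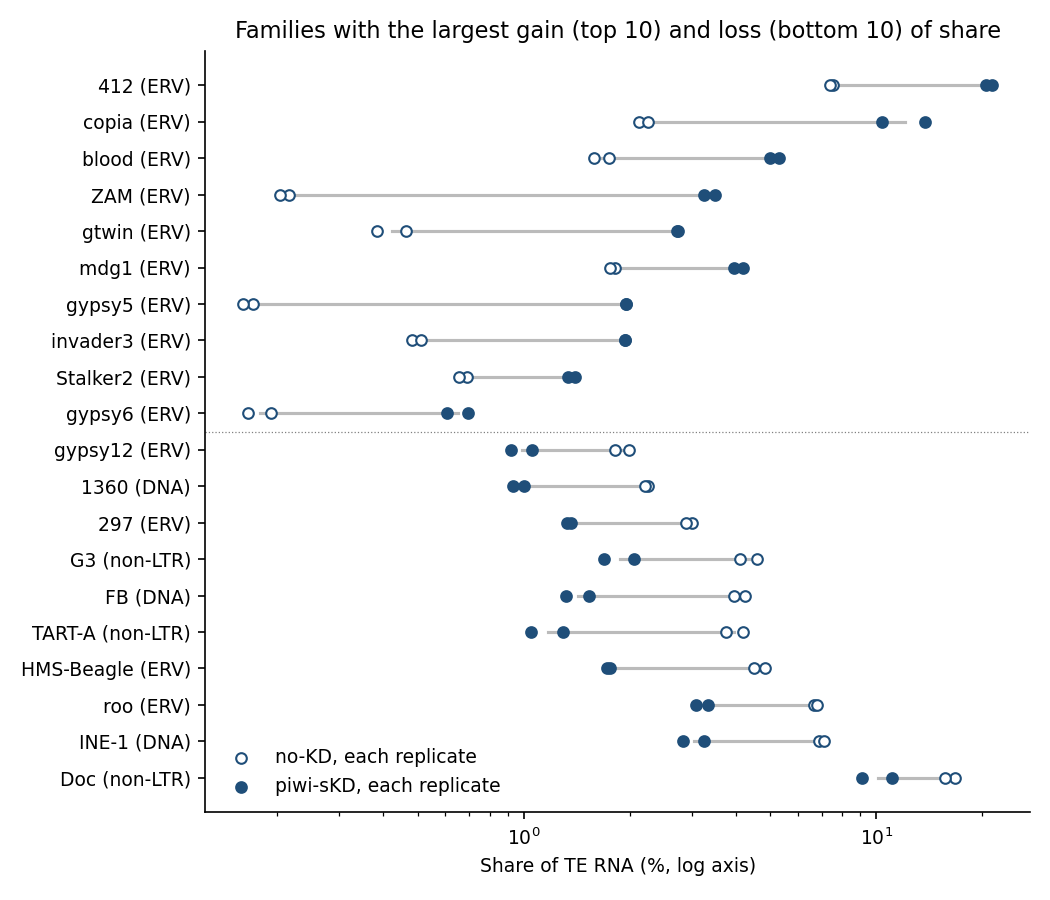
Shares of TE RNA in percent on a log axis for the 10 families with the largest gain and the 10 with the largest loss in percentage points. Open circles are the no-KD replicates, filled circles the piwi-sKD replicates and grey lines join the group means. The 20 families were picked among those called by limma whose groups do not overlap, so the separation seen here is a condition of the choice.

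None of the 6 families of the Tirant/Idefix lineage gained share, and all 6 were called lower, with log2 share changes from -1.43 to -0.65. A lower share was called for 78 of all 109 families (71.6%). Its most abundant member had a mean share of 2.94% in no-KD and 1.35% in piwi-sKD, at a level that differed by 0.24 on the log2 scale with an adjusted p of 0.0947 (limma). On the deposited scale 2 of the 6 were higher and none lower, and with the DNA and non-LTR sum held equal 1 was higher and 1 lower. Tirant was rare in all 4 libraries, with 0.113% and 0.155% in no-KD and 0.0874% and 0.0421% in piwi-sKD. A list of 12 names of families with an env reading frame was set by hand with earlier results of these data known. Of the 11 measured, 5 gained share and 6 lost it, beside 18 and 33 of all 54 ERVs. On the deposited scale 8 of the 11 were higher and none lower, beside 36 and 2 of all 54 ERVs. With the DNA and non-LTR sum held equal 7 were higher and none lower, beside 24 and 6 of the 54. Of the 3 families best known as targets of flamenco, gypsy and ZAM gained share and Idefix lost it (0.562% and 0.429% against 0.223% and 0.218%). The level of Idefix overlapped between groups, at 486 and 341 normalised counts in no-KD against 443 and 503. It was called neither on the deposited scale (limma adjusted p = 0.312) nor with the DNA and non-LTR sum held equal (limma adjusted p = 0.156).

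The large families that lost share differed in level, and for several the call depended on the reference. Doc, a Jockey-clade element and the most abundant TE of no-KD, held 16.7% and 15.7% of TE RNA there and 11.05% and 9.11% in piwi-sKD. Its level was 14475 and 12495 normalised counts against 21939 and 21062, a log2 change of 0.68 (limma adjusted p = 0.00172) that was 0.25 and not called with the DNA and non-LTR sum held equal (adjusted p = 0.171). On the deposited scale Doc was the fourth contributor in size to the net rise, at 6.08%. The BEL/Pao element roo (6.64% and 6.78% against 3.32% and 3.07%) was called higher on the deposited scale, at 0.30, and not called at -0.13 with that sum held equal. INE-1, a short DNA element present in very many fixed copies, held 6.86% and 7.11% against 3.24% and 2.83% and was called on neither scale (0.16 and -0.26). G3 (4.11% and 4.60% against 2.05% and 1.69%), 1360 (2.25% and 2.21% against 1.004% and 0.934%) and FB, a foldback element with long inverted repeats (3.94% and 4.24% against 1.53% and 1.32%), were not called on the deposited scale, with log2 changes of 0.15, 0.17 and -0.15. With the DNA and non-LTR sum held equal all 3 were called lower, at -0.28, -0.26 and -0.58.

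A lower level on both scales was called for 6 families, TART-A, TART-B, diver, micropia, Tc3 and G7. Of these TART-A alone held more than 1% of TE RNA in no-KD, and G7, at 6.47 and 2.02 normalised counts against 1.03 and 0, lay near the limit of 3 reads. TART-A, a telomeric retrotransposon that extends chromosome ends, held 4.18% and 3.74% of TE RNA in no-KD and 1.29% and 1.05% in piwi-sKD. Its level was 3616 and 2973 normalised counts against 2562 and 2421 (limma adjusted p = 0.0175). TART-B held 0.175% and 0.213% against 0.0421% and 0.0398%, with a log2 share change of -2.22. Telomeric elements are known as germline-expressed. All 4 measured members of a list of 5 lost share, beside 78 of all 109 families (71.6%). HeT-A had 1389 and 1214 normalised counts against 1707 and 1697, a level called higher on the deposited scale (limma adjusted p = 0.0116) but not with the DNA and non-LTR sum held equal (log2 change -0.04, adjusted p = 0.79). TAHRE was called on neither of these scales. The summed telomeric level overlapped between groups, at 5180 and 4371 against 4374 and 4236.

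Outside the ERVs 4 of 55 families gained share, beside 22 of all 109 (20.2%): mariner2, S, transib1 and R1A1. The cut-and-paste element mariner2 held 0.128% and 0.113% in no-KD and 0.418% and 0.408% in piwi-sKD (log2 change 1.77 ± 0.14), at a level of 111 and 90 against 830 and 943 normalised counts. R1A1, of the R1 group of elements that insert into ribosomal RNA genes, held 0.0973% and 0.0749% against 0.178% and 0.160%. S held 0.352% and 0.343% against 0.491% and 0.394%, and transib1 0.0649% and 0.0787% against 0.0936% and 0.123%. These 4 families were small in both groups. The CR1-clade element Cr1a was not called in share (1.30% and 1.42% against 1.18% and 1.32%, limma adjusted p = 0.273) but had a higher level, with a mean of 2700.1 against 1127 normalised counts.

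To see whether the make-up of the remaining families moved apart from the ERV rise, shares were also taken within the DNA and non-LTR families alone. Doc held 31.4% and 29.7% of this RNA in no-KD and 37.1% and 35.4% in piwi-sKD, Cr1a 2.44% and 2.68% against 3.96% and 5.15%, and mariner2 0.241% and 0.213% against 1.40% and 1.59%. In the other direction TART-A held 7.85% and 7.06% against 4.34% and 4.07%, FB 7.39% and 8.02% against 5.15% and 5.13%, INE-1 12.9% and 13.4% against 10.91% and 11.001%, and G3 7.71% and 8.68% against 6.90% and 6.56%. All of these lay outside the range of the other group. The whole shift was nevertheless small next to that within ERVs. The Bray-Curtis distance, the fraction of RNA that would have to be reassigned between families to turn one make-up into the other, averaged 0.122 between groups for DNA and non-LTR families, with a range of 0.112 to 0.132, beside 0.0340 at most between replicates. For ERVs it averaged 0.438 beside 0.0408 at most between replicates. Over all families it averaged 0.411 beside 0.0313 and 0.0556.

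**Figure D4:**
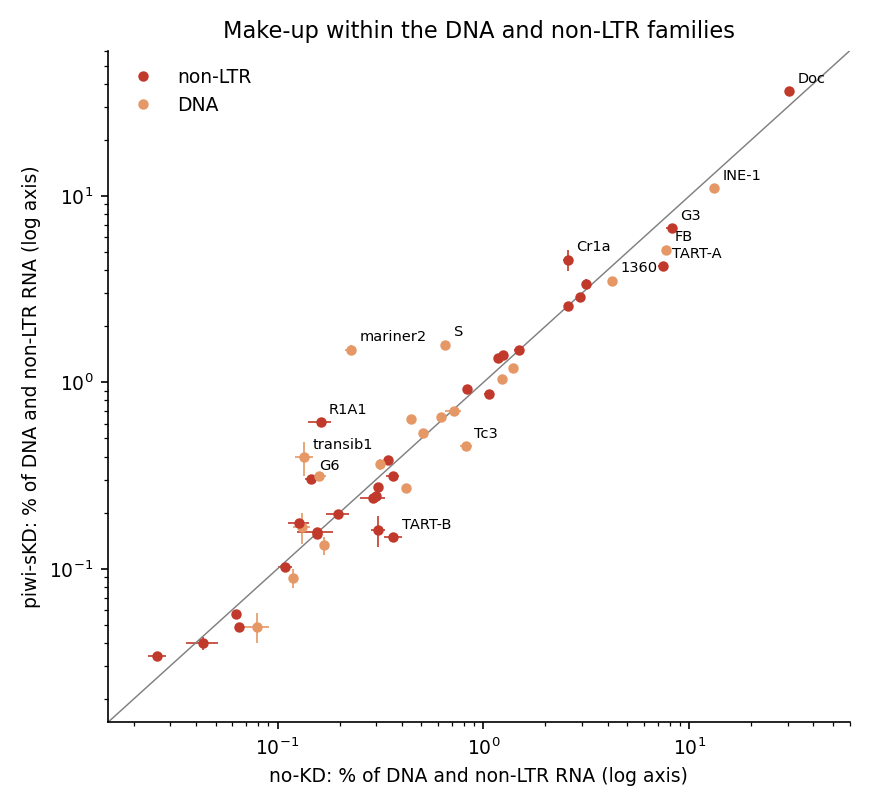
Share of each DNA (orange) and non-LTR (red) family in the RNA of these 2 classes, no-KD on the horizontal and piwi-sKD on the vertical axis, both log axes, with points at the means, bars over the 2 replicates and the line of equality. Families under 0.02% are not drawn. Most families follow the line, with mariner2, S, R1A1, transib1 and Cr1a above it and TART-A, TART-B and Tc3 below.

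TE RNA became more concentrated in piwi-sKD. The effective number of families, the number of equally abundant families that would give the same Shannon entropy, was 34.5 and 34.8 in no-KD and 27.4 and 25.3 in piwi-sKD. The exact permutation p was 0.333, two-sided, the smallest possible with 2 samples against 2. To reach 50% of TE RNA, 7 families were needed in both no-KD replicates and 5 in both piwi-sKD replicates, and 24 families against 21 and 19 to reach 80%. The most abundant family, Doc in no-KD and 412 in piwi-sKD, held 16.7% and 15.7% against 20.5% and 21.3%. Within ERVs the effective number was 22.1 and 21.9 families against 15.6 and 14.4. Among DNA and non-LTR families it was 13.9 and 14.3 against 13.4 and 14.0, and the groups overlapped. The inverse Simpson index, which gives more weight to the largest families, did separate the groups there, at 7.19 and 7.61 against 6.02 and 6.45.

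**Figure D5:**
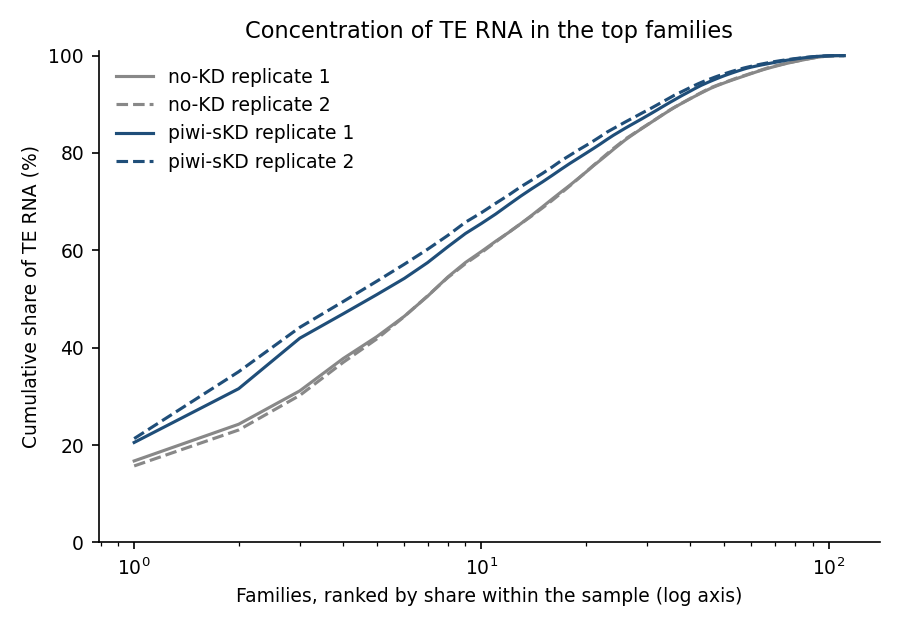
Cumulative share of TE RNA in percent against the number of families, ranked by share within each library, on a log axis. The no-KD lines (grey) nearly coincide, and both piwi-sKD lines (blue) run above them, with the top 5 families at 50.9% and 53.7% against 42.3% and 41.8%.

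Families that gained share were found in every size range, beside 22 of all 109 families (20.2%). Families with a no-KD share of at least 1% (24 families) held 80.8% of TE RNA in no-KD against 76.0% in piwi-sKD. Of these 24, 4 gained share: 412, copia, blood and mdg1. The 30 families from 0.2% to 1% held 14.4% and 17.1%, with 8 gaining, and the 39 families from 0.05% to 0.2% held 4.42% and 6.62%, with 9 gaining. Of the 16 families under 0.05% only Stalker gained. Of the 10 most abundant families of piwi-sKD, ZAM, gtwin and gypsy5 ranked 53, 41 and 62 in no-KD.

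The reference annotation (BDGP6.54) places the noncoding gene of flamenco, lncRNA:flam, on the plus strand of chromosome X from 21631891 to 21790731. Of 107 families matched to annotated insertions, 24 (22.4%) had at least 1 insertion overlapping it. Among ERVs this held for 16 of 54 families (29.6%). By call these were 13 of the 18 that gained share (72.2%), 2 of the 33 that lost it (6.06%) and 1 of the 3 not called. All 16, whether they gained share or not, had an insertion on the strand opposite to the transcript, the orientation that gives antisense piRNAs. Of 36 ERV insertions there 32 were in that orientation. The gaining ERVs with no annotated insertion in it were copia, invader3, accord2, diver2 and HMS-Beagle2. The longest blood insertion (X, 21716913 to 21731788) and the longest Stalker2 insertion (X, 21640019 to 21655539) overlap exons of lncRNA:flam. The longest copia insertion (2L, 20157413 to 20164268) lies outside annotated genes, that of 412 (3L, 1047496 to 1055161) in an intron of bab1 and that of Doc (2L, 19345072 to 19357215) in an intron of dnt. Besides these, 412 and Doc each have 1 insertion overlapping lncRNA:flam, on the opposite strand for 412 and on the same strand for Doc. These are insertions of the reference strain, not of the flies sequenced, and the counts are a description with no test.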

How the data were processed

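TE RNA of ovaries was measured by the authors, who trimmed the reads with UrQt, counted TE reads with TEcount of TEtools on the TE copies of the sequenced genome, aligned reads to FlyBase genes with TopHat2, counted genes with eXpress and normalised genes and TEs together with DESeq2 1.10. The submitters' processing notes name dm3. How reads that match several families were assigned is not given in the sources used here. The deposited values are a signal, the size-factor normalised count of each TE family, in 2 tables of 4 samples. All 8 columns were read and 0 left out. The double-knockdown table was used only for Tirant in the closing section.

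Every value was a whole multiple of 1 step per sample (tolerance 1e-06 of a read), which gave the TE reads and the size factors (0.927 to 1.13). Samples were grouped by their titles. Families were assigned by hand to classes and to 16 lineages. The lineage called Tirant/Idefix here also holds 297, its most abundant family, and 17.6. The members and the lists were chosen with earlier results of these data known.

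Tests used limma 3.58.1 in R 4.3.3 (lmFit, eBayes with trend) on log2(value + 1), with only the 4 samples compared in the fit, no covariate, Benjamini-Hochberg adjustment over 109 families and a threshold of 0.05. In the share fit the variance prior had infinite degrees of freedom, so that fit adds no uncertainty for the spread. In the fit of deposited levels it had 6.11. The code was tested on simulated data with known answers. Replicates are separate pools of ovaries. Families were named by rule. The rule took the 10 largest gains and 10 largest losses in percentage points, among called families whose groups did not overlap. It added the 5 largest log2 changes each way among called families with a mean of at least 10, and the largest family of each lineage of 3 or more. Other families are named where a lineage or list is described and were chosen after their values were seen. Alternatives were other scalings, pseudocounts of 0.5 and 5, a filter on a mean of 10, no trend, a replicate block, other diversity and distance measures, and each replicate left out. The same-numbered samples did not deviate together (correlation -0.128 over 105 families).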

Additional observations from a re-analysis of the deposited data

Results flagged for a closer look

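Among the double-knockdown libraries, which no comparison here uses and which were normalised in a table of their own, Tirant stood apart. Its share of TE RNA was 32.9% and 36.4% where the second hairpin was the control (piwi-sKD,ctrl-sKD). It was 17.9% and 21.6% where the second hairpin was against Dcr2 (piwi-sKD,dcr2-sKD). In the 4 libraries described above, Tirant never reached more than 0.155% of TE RNA. The difference was not tested, and other families are not set side by side across the 2 tables.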

How the results depend on the processing

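The direction of the share calls depends on the reference. On the deposited scale 60 families were higher and 6 lower, and with the DNA and non-LTR sum held equal 33 were higher and 19 lower, in place of 22 and 78. Log2 changes turned positive on the deposited scale for Doc (0.68), INE-1 (0.16), roo (0.30), G3 (0.15), 1360 (0.17), gypsy12 (0.42), Cr1a (1.25), pogo (0.21), transib3 (0.18), Tabor (0.54) and the most abundant Tirant/Idefix family (0.24). With the DNA and non-LTR sum held equal they did so for Doc (0.25), Cr1a (0.82) and Tabor (0.12), and centred on the median of all families for Cr1a (0.076). These shifts follow from the scaling itself. Of 403 recomputed values of the 31 named families, 379 kept direction and side of the threshold.

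Leaving out each replicate leaves 1 sample in a group, assumed to vary like the other group. It gave 20 to 22 families higher and 69 to 73 lower, an ERV gain of 23.4 to 27.4 points, a difference in effective number of -9.37 to -7.24 (DNA and non-LTR: -0.67 to -0.06) and a Bray-Curtis distance of 0.387 to 0.436. The inverse Simpson index differed by -6.00 over all families and by -1.16 over DNA and non-LTR families, without overlap in either. Without 412 and copia the ERV gain was 17.5 points and the Bray-Curtis distance 0.305, and on square roots of shares the distance was 0.208. Without their largest family, which is also the one that gained most, the gains of the Ty1/copia families (-0.0582 points), the gypsy lineage (-0.105) and the invader families (-0.489) turned. Without ZAM, its family of largest gain and left out after seeing the data, that of the ZAM lineage turned (-0.956). With the replicate block 21 families were higher and 77 lower, all among those called without it, and with crossed pairs, chosen after seeing the data, 22 and 77. Planned count tests with edgeR and DESeq2 were not run, and the recovered reads served only for depth and limits. The smallest families rest on few reads, and BS4 on a single read.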
